A study of Homo sapiens with 9 samples.

Results

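DDX21 peaks were found in 4 stretches of assembled human chromosomes that are described as holding copies of ribosomal DNA sequence, and CDK9 peaks were not. The stretches were chromosome 21 from 9820000 to 9840000, chromosome 16 from 33945000 to 33970000, chromosome 2 from 133005000 to 133045000 and chromosome 20 from 26180000 to 26195000 (hg19, as for all peak positions). They were selected on peaks already seen in the DDX21 lists and on carrying the genes MIR3648 and MIR3687 (chromosome 21), MIR663B (chromosome 2) and MIR663A (chromosome 20), or rDNA-like sequence alone (chromosome 16). Every peak that overlapped one of them was taken, which gave 77 of the 27469 peaks of 6 lists. The values behind the choice were the positions of those peaks, so peak numbers and heights in the stretches are a description and carry no test.

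The peaks came from chromatin immunoprecipitation and sequencing (ChIP-seq) of DDX21 or CDK9 in A375, an established human melanoma cell line. Cells were kept for 24 h with 25 µM A771726 plus nucleotides, with 25 µM A771726 alone, or with DMSO. There was 1 library for each antibody under each treatment, and values of different treatments therefore have no replicate error behind them. The 3 input libraries were not used here.

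Ribosomal DNA is transcribed in the nucleolus by RNA polymerase I into a long precursor that is cut into the 18S, 5.8S and 28S rRNAs. The genes lie in tandem arrays on the short arms of the acrocentric chromosomes, and copies or fragments of the unit are scattered elsewhere. DDX21 is a DEAD-box RNA helicase of the nucleolus with known roles in rRNA transcription and processing. CDK9 is the kinase subunit of P-TEFb, a complex that releases RNA polymerase II from promoter-proximal pausing. A771726, the active form of leflunomide, inhibits dihydroorotate dehydrogenase and so limits the making of pyrimidine nucleotides, which RNA synthesis uses.

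The microRNAs that give these stretches their names are shown because they are the named genes of the stretches. Sequences are from RefSeq (GRCh38.p14), with the seed, bases 2 to 8 from the 5′ end, in capitals, and in the hairpin with the mature arm in capitals. They were found for 3 of the 4 named microRNA genes, MIR3648 through the entry MIR3648-2. In that build hsa-miR-3648 is at chr21:8987026-8987046 on the plus strand, hsa-miR-663a at chr20:26208243-26208264 on the minus strand and hsa-miR-663b at chr2:132256970-132256991 on the minus strand. These GRCh38 positions cannot be set against the hg19 positions of the peaks.
hsa-miR-3648: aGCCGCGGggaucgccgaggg
hsa-miR-663a: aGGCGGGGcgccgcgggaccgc
hsa-miR-663b: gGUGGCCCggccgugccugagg
MIR663B hairpin: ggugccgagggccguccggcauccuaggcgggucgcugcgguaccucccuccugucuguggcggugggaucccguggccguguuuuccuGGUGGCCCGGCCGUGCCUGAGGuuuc
All are rich in G and C: 81.0% of the bases of hsa-miR-3648, 90.9% of hsa-miR-663a, 81.8% of hsa-miR-663b and 70.4% of the MIR663B hairpin. The 3 mature sequences have 3 different seeds, and hsa-miR-663a and hsa-miR-663b share a name but not a seed.

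The neighbours of these genes in RefSeq differed in the named rRNA genes and pseudogenes near them. MIR3648-1 lies on chromosome 21 inside RNA45SN2, a gene for the full 45S precursor. It is a different entry from MIR3648-2, which gave the sequence and position above, and neither was placed on the hg19 stretch. MIR663B lies on chromosome 2 within 30 kb of 3 rRNA pseudogenes, one each of the 5.8S, 18S and 28S rRNAs, and inside the gene ANKRD30BL. MIR663A lies inside its host gene MIR663AHG with no named rRNA gene or pseudogene within 30 kb. The same table names 52 rRNA genes and pseudogenes, 20 genes and 32 pseudogenes. A read from one copy may match others, and how reads with several matches were placed is not given in the sources used here. Signal that arose at the stretches and signal from other copies therefore cannot be told apart. Peaks are of hg19 and this table is of GRCh38, so peaks were not assigned to exons, introns or the ribosomal unit.

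DDX21 had 33 peaks in the 4 stretches with A771726 plus nucleotides, 20 with A771726 and 24 in DMSO. These covered 11908, 7195 and 10483 bp, in the same order. They made up 0.417% (95% interval 0.287 to 0.585) of the list with nucleotides, 0.457% (0.279 to 0.705) of the list with A771726 and 0.288% (0.185 to 0.429) of the DMSO list. The intervals are exact binomial ones (Clopper-Pearson), take each peak as independent and cover nothing but counting error. The DDX21 lists themselves held 7922, 4375 and 8321 peaks, in the same order.

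**Figure D1:**
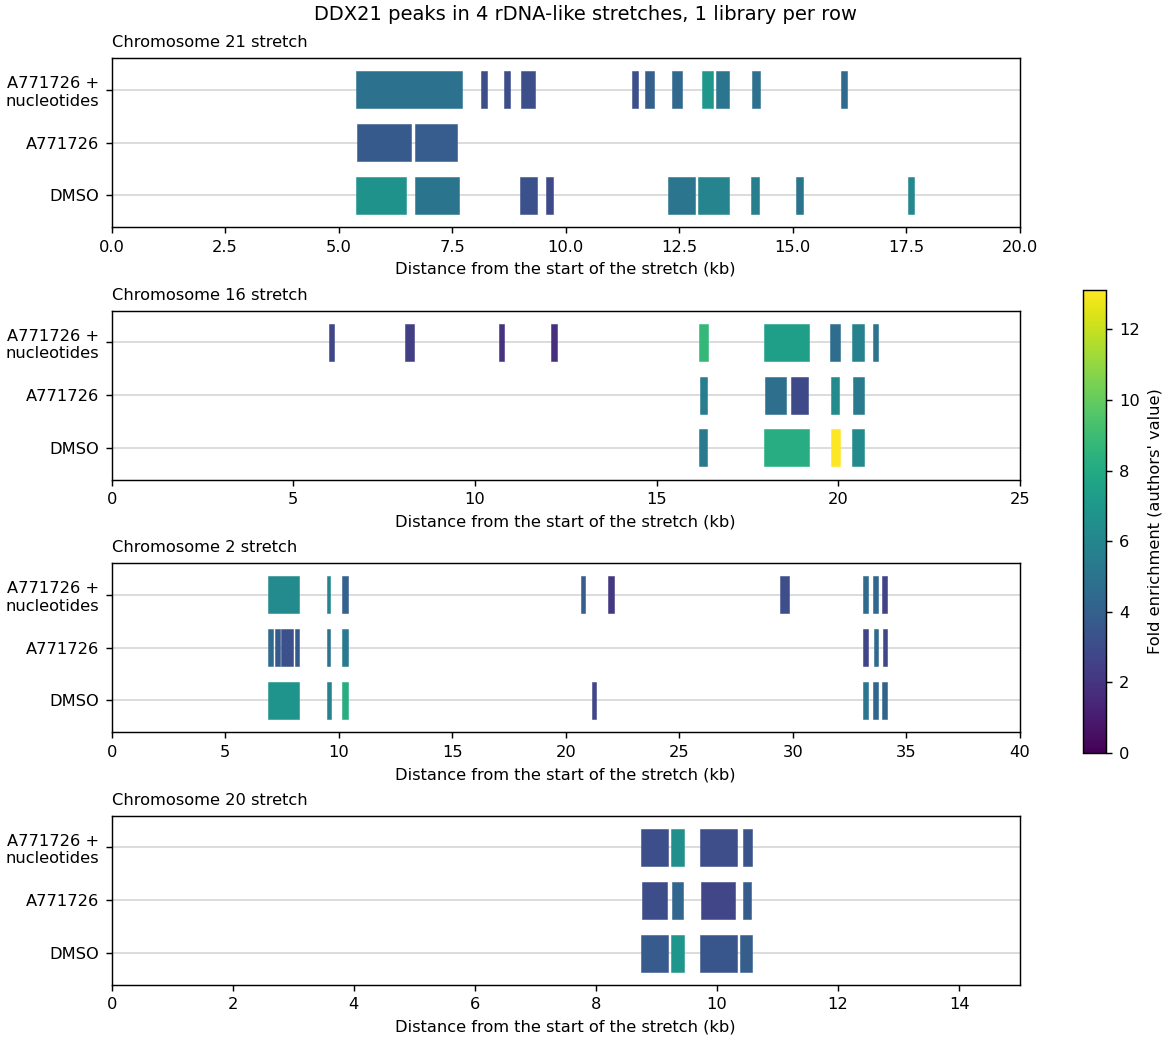
DDX21 peaks in the 4 stretches, by distance from the start of each stretch (kb), in rows for A771726 plus nucleotides, A771726 and DMSO, with 1 library per row. Colour is the fold enrichment the authors' peak caller gave each peak; the stretch on chromosome 21 held 11 peaks with A771726 plus nucleotides, 2 with A771726 and 9 in DMSO, and that on chromosome 20 held 4 in each list.

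When overlapping peaks of the 3 DDX21 lists were joined, the stretches held 36 sites, each named here by its chromosome and position. Of these, 15 had a peak in all 3 lists, 4 with A771726 plus nucleotides and in DMSO, 13 with A771726 plus nucleotides only and 4 in DMSO only. No site was in the A771726 list only, a class that held 24 of all 9032 DDX21 sites (0.266%). Sites found with A771726 plus nucleotides only were 36.1% of the 36, against 8.69% of all 9032 DDX21 sites. With −log10 q of at least 5, sites joined again, this class held 5 of 27 sites, or 18.5%, against 7.66% of all 8320. Those in all 3 lists were 41.7% of the 36, against 46.8% of all sites. Sites found with A771726 plus nucleotides and in DMSO were 11.1%, against 31.5%, and sites in DMSO only were 11.1%, against 12.5%. Of the 24 DMSO peaks in the stretches, 16 overlapped an A771726 peak, or 66.7%, against 51.1% of the whole DMSO list. That share differed between stretches, at 2 of 9 on chromosome 21 and 93.3% of the 15 peaks on the other 3. All 20 A771726 peaks of the stretches overlapped a DMSO peak, as did 99.3% of the whole A771726 list.

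The list with nucleotides had peaks of its own in the stretches. Of the 33 peaks with A771726 plus nucleotides, 20 overlapped a DMSO peak, or 60.6%, against 90% of the whole list. Of the same 33 peaks, 15 overlapped an A771726 peak, or 45.5%, against 53.5% of the whole list. In the other direction, 20 of the 24 DMSO peaks, or 83.3%, overlapped a peak with A771726 plus nucleotides, against 86.3% of the DMSO list. All 20 A771726 peaks did, against 99.2% of their list.

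The chromosome 21 stretch, named for MIR3648 and MIR3687, held the tallest DDX21 signal of the 4. One site from 9825380 to 9827712 was a single peak of 2333 bp with A771726 plus nucleotides, the widest of all 7922 peaks of that list. With A771726 it was 2 peaks of 1193 and 937 bp, and in DMSO 2 peaks of 1095 and 980 bp. Its summit pileup (the number of fragments over the highest point, worked back from the deposited values) was 262 with A771726 plus nucleotides, 232 with A771726 and 256 in DMSO. Each value is the highest pileup of its whole list and equals 2 times the length of the list's shortest peak, 131, 116 and 128 bp. The caller's fold enrichment for the peak with the highest −log10 q was 4.97 with A771726 plus nucleotides, 3.82 with A771726 and 6.69 in DMSO, with −log10 q of 91.3, 59.4 and 117. If the shortest peak has the length of a fragment, this is the most that 1 tag per position and strand could give, and above it heights of the treatments cannot be told apart. That height was reached by 54 peaks of the list with nucleotides, 3 of the A771726 list and 73 of the DMSO list, and 1, 2 and 2 of these lay here.

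To the right of that site, from 9828125 to 9837675, DDX21 peaks were small and depended on the list. There were 10 with A771726 plus nucleotides, none with A771726 and 7 in DMSO. Their summit pileups ran from 9 to 30 fragments with A771726 plus nucleotides and from 13 to 28 in DMSO. Background there fell towards the right end, to 1.21 fragments at the last peak with A771726 plus nucleotides and 1.27 at the last DMSO peak, close to the lowest of each list, 1.10 and 1.22. Positions matched only in part. Of these sites 4 had a peak in both lists, 5 with A771726 plus nucleotides only and 3 in DMSO only. The −log10 q of these peaks was between 3.13 and 9.61 with A771726 plus nucleotides and between 3.41 and 9.77 in DMSO, against list medians of 38.1 and 39.9.

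On chromosome 16, 4 DDX21 sites lay close together from 33961180 to 33965717 and had a peak in all 3 lists. The widest, from 33962970 to 33964202, was 1 peak of 1227 bp with A771726 plus nucleotides, 2 peaks of 577 and 475 bp with A771726, and 1 peak of 1232 bp in DMSO. Its summit pileup was 198 fragments with A771726 plus nucleotides, 185 with A771726 and 201 in DMSO. This site held the top peak of the stretch in each list, with a fold enrichment of 7.38, 4.72 and 8.16 and a −log10 q of 98.4, 60.5 and 108, in the same order. The pileups of the 3 lists lay within a narrow range here.

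The other 3 sites of this group were similar in that respect. From 33961180 to 33961423 the pileup was 103 fragments with A771726 plus nucleotides, 97 with A771726 and 89 in DMSO. From 33964787 to 33965055 it was 68, 70 and 71, and from 33965377 to 33965717 it was 100, 99 and 95, in the same order. The site at 33964787 shows how the caller's values can part from the pileup. Its fold enrichment was 4.64 with A771726 plus nucleotides, 6.23 with A771726 and 13.1 in DMSO, where local backgrounds were 13.9, 10.4 and 4.49 fragments. A further 5 peaks were in the list with nucleotides only. Of those, 4 lay from 33950973 to 33957264 at backgrounds of 12.7 to 26.0 fragments and had fold enrichments of 1.83 to 2.78, and the fifth lay from 33965963 to 33966100 with 4.97.

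On chromosome 2, the stretch named for MIR663B had 2 groups of DDX21 sites. In the left one, a site from 133011869 to 133013258 was 1 peak of 1390 bp with A771726 plus nucleotides, 4 peaks of 176 to 521 bp with A771726 and 1 peak of 1387 bp in DMSO. Its highest pileup was 155 fragments with A771726 plus nucleotides, 131 with A771726 and 148 in DMSO. It was the top peak of the stretch with nucleotides and in DMSO, with −log10 q of 66.8 and 69.2 and fold enrichments of 6.20 and 6.81. The top A771726 peak was on the next site but one, from 133015143 to 133015399, with a −log10 q of 41.1 and a fold enrichment of 5.34. That site, from 133015127 to 133015423, had a pileup of 107 fragments with A771726 plus nucleotides, 111 with A771726 and 113 in DMSO. Between them, from 133014463 to 133014659, the pileup was 37, 34 and 34 fragments, in the same order.

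The right group of chromosome 2 was 3 sites from 133038092 to 133039148. Their pileups were 58, 61 and 31 fragments with A771726 plus nucleotides, 56, 64 and 31 with A771726 and 59, 62 and 33 in DMSO, from left to right. No site differed between the lists by more than 3 fragments. Between the groups lay 3 peaks of the list with nucleotides and 1 of the DMSO list, none of which overlapped another, with fold enrichments of 2.12 to 3.81 and 2.74.

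On chromosome 20, the stretch named for MIR663A had the same 4 DDX21 sites in every list, from 26188745 to 26190575. From left to right the pileups were 133, 93, 177 and 63 fragments with A771726 plus nucleotides. They were 133, 93, 160 and 66 with A771726 and 134, 95, 172 and 67 in DMSO. The widest peak, at the third site, spanned 605 bp with A771726 plus nucleotides, 546 bp with A771726 and 607 bp in DMSO. The second site had the highest −log10 q of the stretch in every list, 42.3 with A771726 plus nucleotides, 27.1 with A771726 and 45.2 in DMSO, with fold enrichments of 6.54, 4.31 and 6.88. No peak of any list lay in the stretch outside these sites.

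Where a site of the stretches had a peak in all 3 lists, its DDX21 pileup hardly differed between treatments, unlike at most DDX21 sites of that class. The other sites of the stretches had no A771726 peak and are not part of this comparison. At the 15 sites with a peak in all 3 lists, the pileup with A771726 was 0.885 to 1.09 times that in DMSO, with a median of 0.982. Over all 4230 DDX21 sites with a peak in all 3 lists the median was 0.400, and 10% to 90% of sites lay between 0.280 and 0.616. It was below DMSO at 11 of the 15 sites, against 99.4% of the 4230. The caller's fold enrichment did differ at the 15 sites. With A771726 it was 0.473 to 1.04 times that in DMSO, with a median of 0.677, and below DMSO at 13 of the 15. Over all 4230 sites the median fold enrichment ratio was 0.541, with 90.8% below DMSO. Pileup with A771726 was within 10% of that in DMSO at 14 of the 15 sites, against 1.42% of the 4230. Those 14 were 23.3% of the 60 sites that met this measure. With A771726 plus nucleotides over A771726 the median ratio was 1.01 at the 15 sites and 2.34 over all 4230, and with A771726 plus nucleotides over DMSO it was 0.985 and 0.957. Pileup with A771726 plus nucleotides was within 10% of that with A771726 at 12 of the 15 sites, against 1.16% of the 4230, and within 10% of DMSO at 14 of the 15, against 59.5%. The 15 sites include the wide chromosome 21 site, whose pileup in each list was 2 times the length of the list's shortest peak. Its ratios therefore follow those lengths. At the 14 sites without it, the A771726 over DMSO median was 0.984 (0.885 to 1.09), with 10 below 1.

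**Figure D2:**
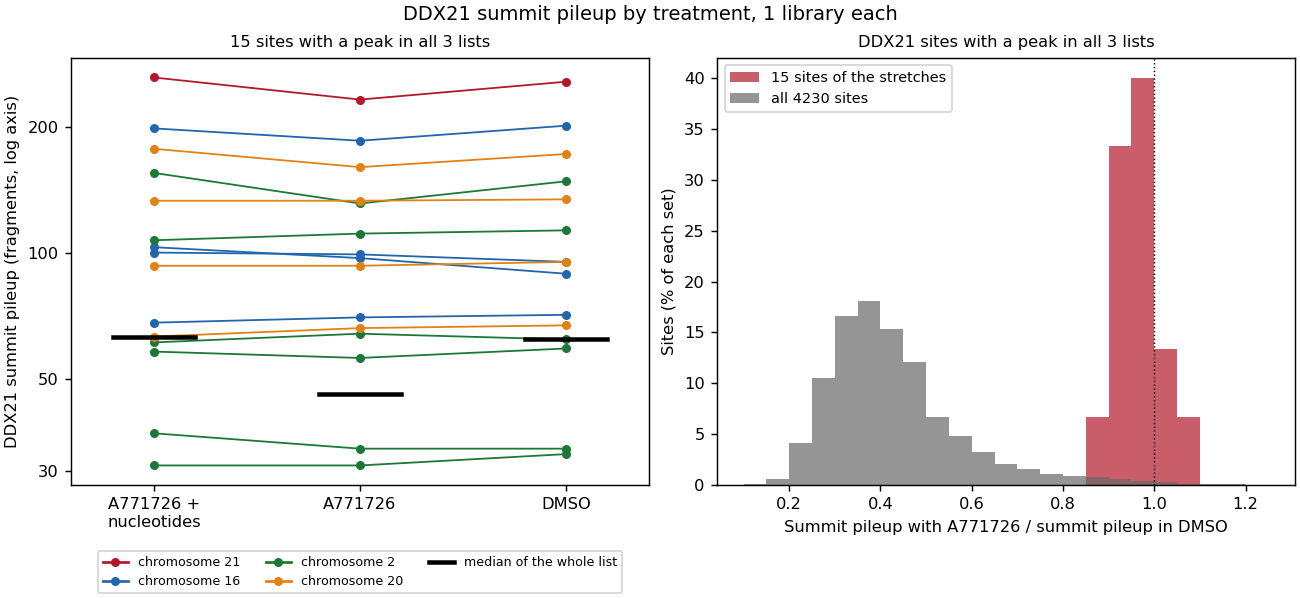
Left, summit pileup of DDX21 (fragments, log axis) at the 15 sites found in all 3 lists, 1 line per site and 1 library per treatment, with the whole list's median as a black bar (63 fragments with A771726 plus nucleotides, 46 with A771726 and 62 in DMSO). Right, pileup with A771726 over pileup in DMSO as a share of each set of sites; the 15 sites lie between 0.885 and 1.09, and the median of all 4230 sites is 0.400.

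The ratios were also taken after dividing by a measure of depth. The lowest background of a list, which follows the number of tags and their length, was 1.10 fragments with A771726 plus nucleotides, 1.16 with A771726 and 1.22 in DMSO. With each pileup divided by it, the A771726 over DMSO median was 1.03 at the 15 sites and 0.418 over all 4230. So divided, A771726 plus nucleotides was higher at all 15 sites, with a median of 1.09 times DMSO (1.04 to 1.28) and 1.07 times A771726 (1.01 to 1.25). Without the wide chromosome 21 site the medians were 1.09 and 1.06, and every site was again higher. Over all 4230 sites the medians were 1.06 and 2.48, with 33.6% of sites below DMSO and 0.142% below A771726. The list with nucleotides also had the smallest divisor. Undivided, its pileup was below DMSO at 9 of the 15 sites and below A771726 at 4. Sites elsewhere with a DMSO background of at least 10 fragments, chosen after the values were seen, numbered 577 and had a median pileup ratio of 0.468, with 10% to 90% between 0.311 and 0.813. Outside the wide chromosome 21 site, the highest pileups of these sites were 198 with A771726 plus nucleotides, 185 with A771726 and 201 in DMSO, under the list maxima of 262, 232 and 256. The part that reads from other ribosomal copies, or a limit on repeated tags, play in the near-equal heights and edges was not tested.

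Peak edges of these DDX21 sites with A771726 plus nucleotides lay close to those in DMSO. Of the 15 sites, 12 had a single peak in each list. The start of the peak with A771726 plus nucleotides lay a median of 2 bp from that in DMSO, and the end a median of 3 bp. At the 4043 other sites with a single peak in each list the medians were 25 and 26 bp. Starts were within 5 bp at 10 of the 12 sites (83.3%), against 13.2% of the others, and ends at 9 of the 12, against 12.6%. Edges of the A771726 peaks were less close: against DMSO, 0 of 12 starts and 1 of 12 ends were within 5 bp, and with A771726 plus nucleotides against A771726, 1 of 12 starts and 0 of 12 ends. A771726 peaks of these sites were shorter at both ends, with starts and ends each a median of 17 bp inside those of DMSO, against 62 and 63 bp at the others. The shortest peaks of the lists also differed, at 131 bp with A771726 plus nucleotides, 116 bp with A771726 and 128 bp in DMSO. The part that this length plays in the edge distances was not tested.

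**Figure D3:**
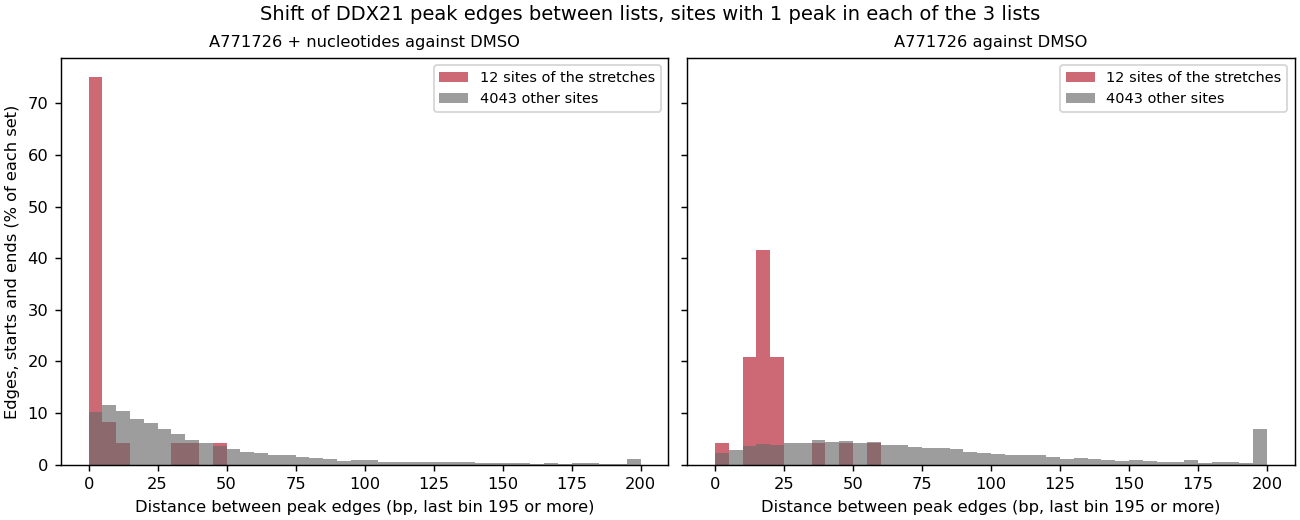
Distance (bp) between the edges of a DDX21 peak in DMSO and in the other list, starts and ends together, as a share of each set: A771726 plus nucleotides on the left and A771726 on the right. The 12 sites of the stretches have median shifts of 2 bp (starts) and 3 bp (ends) on the left and 17 bp on the right, against 25, 26, 62 and 63 bp at the 4043 other sites; the last bin gathers all larger distances.

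Local background, against which the caller sets the pileup, was above the list median at all 20 peaks of the stretches with A771726, and at most of them in the other lists. That was 27 of 33 peaks with A771726 plus nucleotides and 17 of 24 in DMSO. Its median over the DDX21 peaks there was 13.3 fragments with A771726 plus nucleotides, 20.4 with A771726 and 13.0 in DMSO. Medians over the whole lists were 5.43 with A771726 plus nucleotides, 4.0 with A771726 and 5.04 in DMSO. The chromosome 21 stretch differed from the others, with a median of 5.59 fragments over its peaks with A771726 plus nucleotides, 61.2 over its 2 peaks with A771726 and 2.92 in DMSO. A background of at least 10 fragments was found at 21 of the 33 peaks with A771726 plus nucleotides, against 9.37% of that list, at 19 of the 20 with A771726, against 3.68%, and at 14 of the 24 in DMSO, against 10.2%. The highest values were 56.1 and 62.4 fragments with A771726 plus nucleotides and with A771726, and 49.7 in DMSO, or 51.0, 53.5 and 40.8 times the lowest background of the list.

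Fold enrichment in the stretches was mostly under the list medians, at high and at low background. Median fold enrichment in the stretches was 4.01 with A771726 plus nucleotides, 3.79 with A771726 and 5.22 in DMSO, where whole lists had 9.80, 9.31 and 10.1. No peak of the stretches was above its list's median with A771726 plus nucleotides or with A771726, and 1 of 24 was in DMSO, the peak on chromosome 16 from 33964791 to 33965051. The last 5 peaks of the chromosome 21 stretch with A771726 plus nucleotides had backgrounds of only 1.21 to 2.42 fragments and fold enrichments of 4.39 to 6.97. By −log10 q the best peak of the stretches ranked 2232 of 7922 with A771726 plus nucleotides, 1204 of 4375 with A771726 and 2118 of 8321 in DMSO. At the 15 sites found in all 3 lists, background with A771726 was 0.994 to 2.32 times that in DMSO, with a median of 1.44 against 0.709 over all 4230 sites. Background was lower than in DMSO at 1 of the 15, against 79.4% of the 4230. Pileups at these sites thus lay closer together than their backgrounds did.

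**Figure D4:**
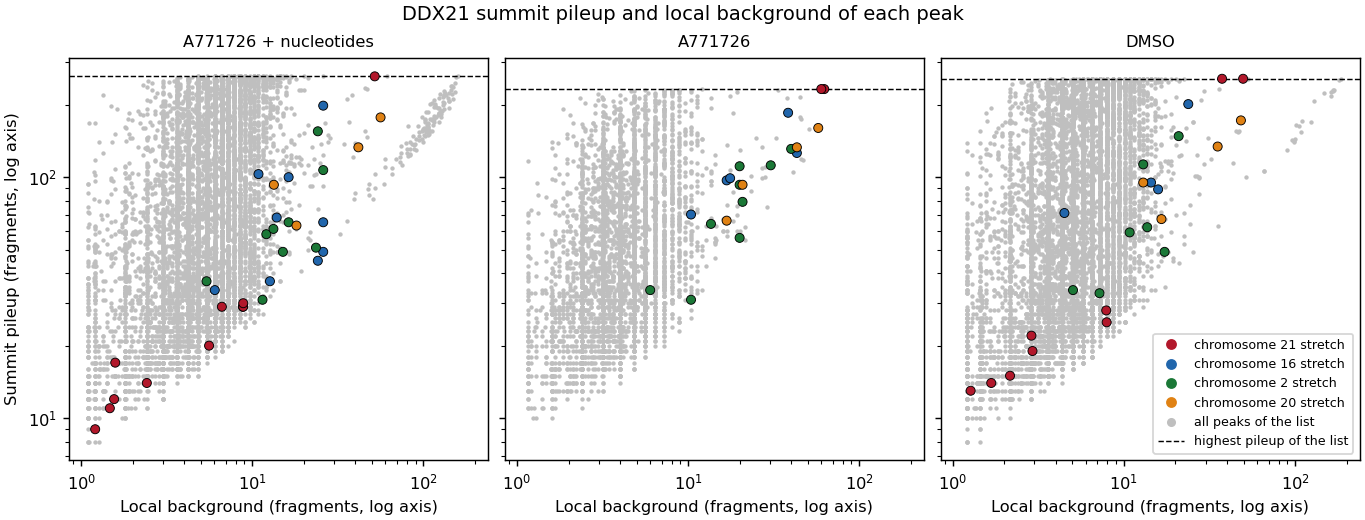
Summit pileup against local background (both in fragments, log axes) for each DDX21 peak with A771726 plus nucleotides, with A771726 and in DMSO, 1 library per panel; grey points are all peaks, coloured points those of the stretches. The dashed line is the highest pileup of the list, 262, 232 and 256 fragments, on which the wide chromosome 21 peaks lie.

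No CDK9 peak lay in any of the 4 stretches. The CDK9 lists held 3099 peaks with A771726 plus nucleotides, 290 with A771726 and 3462 in DMSO. A count of 0 allows shares of up to 0.119%, 1.26% and 0.106% of them, in the same order, as the upper exact binomial bound. For the short A771726 list a share like that of DDX21 was not detectable. The stretches were chosen on DDX21 peaks, so these bounds are no test of a difference between CDK9 and DDX21. The nearest CDK9 peak to the chromosome 2 stretch was 289 kb away with A771726 plus nucleotides, 19972 kb with A771726 and 287 kb in DMSO. For chromosome 20 these distances were 950 kb, 3998 kb and 950 kb, and for chromosome 16 they were 2425 kb, 11907 kb and 2859 kb. On chromosome 21 the nearest was 6410 kb away both with A771726 plus nucleotides and in DMSO, and the A771726 list had no peak on that chromosome.

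Some DDX21 peaks of the stretches lay at a background of 20 fragments or more. These were 10 of 33 with A771726 plus nucleotides, 10 of 20 with A771726 and 6 of 24 in DMSO. CDK9 peaks at 20 fragments or more, all outside the stretches, numbered 24 with A771726 plus nucleotides, 0 with A771726 and 18 in DMSO. Their lowest summit pileups were 50 fragments with A771726 plus nucleotides and 44 in DMSO. These are the lowest heights seen, not a limit of the caller, and the peak lists give no CDK9 level where no peak was called. Because no CDK9 peak lay there, overlap of CDK9 with DDX21 could not be given for these stretches, while over whole lists 13.6%, 15.5% and 17.8% of CDK9 peaks lay on a DDX21 peak with A771726 plus nucleotides, with A771726 and in DMSO.

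The limits of the stretches were far from other DDX21 peaks except at the right end on chromosome 2. The last peak inside that end stopped at 133039148 with A771726 plus nucleotides, 133039132 with A771726 and 133039146 in DMSO. The first beyond it began at 133062144, 133062173 and 133062137, in the same order, about 17.1 kb past the limit. That peak had pileups of 189 fragments with A771726 plus nucleotides, 97 with A771726 and 211 in DMSO, with fold enrichments of 18.9, 16.9 and 19.1. At the other limits the nearest outside peak was at least 115.599 kb away in every list. The closest was a DMSO peak left of the chromosome 21 stretch, from 9704170 to 9704401, whose fold enrichment was 2.58.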

How the data were processed

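Peak lists of 6 ChIP-seq libraries, 1 per antibody and treatment, were read and grouped by their titles. Per the submitters' processing notes, Bowtie, MACS2 2.0 and the build hg19 were used. What each was used for, the control and how reads with several matches were placed: not given in the sources used here. The deposited lists give, per peak, a fold enrichment (a ratio), a −log10 p-value, a −log10 q-value, a score and a summit offset, all as the authors' caller wrote them. The deposited score was not used.

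A peak belonged to a stretch when they overlapped by at least 1 bp. Pileup and local background were worked back from fold enrichment, taken as (pileup + 1)/(background + 1), and −log10 p, taken as a Poisson upper tail. In 100% of peaks some whole-number pileup gave the deposited −log10 p to within 0.001. The step was checked on values simulated with the same formulas, which does not test the formulas themselves. Sites were joined over the DDX21 lists, each standing for its highest pileup. Read depth is unknown. No p-value was computed, there being 1 library per group.

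The stretches, members and measures were chosen with earlier results of these data known. The text names the peak with the highest −log10 q per stretch and list, the widest peak per stretch and the nearest peaks outside. Chosen after their values were seen were the other sites described, the joined sites, and the edge and pileup comparisons. The alternatives tried were peaks with −log10 q of 5 or more, summit instead of overlap, stretches widened by 10 kb, leaving out chromosome 21, 50% overlap, and merging peaks within 200 bp. Python 3.11.15, pandas 2.3.3 and scipy 1.17.1 were used.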

Additional observations from a re-analysis of the deposited data

How the results depend on the processing

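Of 105 alternative values, 92 stayed within the 95% interval of a share or within 1.5 times any other value, 13 moved and 0 reversed. Most of these values are counts, covered bases or shares, which could not reverse. Among the 92, 42 are CDK9 values that stayed at 0. With a −log10 q of at least 5, the DDX21 peaks with A771726 plus nucleotides numbered 21, or 0.285% of those that passed, and the sites in that list only fell to 5, against 13 without this limit, an alternative chosen after seeing the data. Without the chromosome 21 stretch, peaks covered 7593 bp with nucleotides and were 0.278% of the list. In DMSO there were then 15 peaks, covering 6170 bp and making up 0.180% of the list, and 93.3% of them overlapped an A771726 peak. With peaks within 200 bp merged, the A771726 list held 13. The highest pileup over the lowest background of its list was 238 with A771726 plus nucleotides, 199 with A771726 and 211 in DMSO, all on chromosome 21. The highest deposited fold enrichment was 8.76, 6.23 and 13.1, all on chromosome 16, so these measures name different sites. The median A771726 over DMSO pileup ratio of 0.982, with alternatives chosen after seeing the data, ran from 0.979 to 1.03 over all of them, including each stretch left out in turn. Overlap of CDK9 with DDX21 peaks in the stretches gave no value under any alternative, since no CDK9 peak lay there. No paired analysis was possible because each antibody and treatment had 1 library. A pileup at the highest value its list allows, as on chromosome 21, bounds what these lists can show.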
